A study of Mus musculus with 23 samples.

Results

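Transcript levels of 10 circadian clock genes (Per1, Per2, Cry1, Cry2, Arntl, Clock, Dbp, Tef, Nr1d1 and Nr1d2) were followed across collection days in myeloid cells from the blood of mice of 2 tumour models. The 10 genes were taken by symbol, whatever their values, from the 24421 genes listed in each model's table, and each was found in both. The libraries were poly-A based RNA sequencing of cells that the labels name MDSCs (myeloid-derived suppressor cells) and Immature Myeloid Cells, taken from Peripheral blood by MACS magnetic separation, in which antibody-coupled beads hold the wanted cells on a column. The CT26 model (CT26 is a mouse colon carcinoma line) used strain Balbc and had 3 libraries at each of days 0, 4, 8 and 11. The B16 model (B16 is a mouse melanoma line) used strain C57bl and had 3 libraries at days 0, 8 and 11 and 2 at day 4, replicates 1 and 3. The labels give no treatment, age or further allele and do not say from which event days were counted. The study's design text calls the libraries of a day biological repeats without saying whether they came from separate animals. The p-values therefore measure the spread between these libraries, which may be technical. The hour at which blood was taken is not given in the sources used here, so day and hour of collection cannot be told apart. The models were normalised in separate tables and differ in strain, so no test was made between them.

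The mammalian clock is a delayed feedback loop. ARNTL (also called BMAL1) pairs with CLOCK, binds E-boxes in DNA and activates Per and Cry genes, whose proteins return to the nucleus and inhibit the pair. NR1D1 and NR1D2 (REV-ERB alpha and beta) repress Arntl in a further loop, and DBP and TEF are transcription factors of the PAR bZIP family that carry the rhythm to output genes through D-boxes. Blood neutrophils and monocytes contain this loop, and Per1 and Per2 are also acutely inducible by hormonal and stress signals.

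The output genes Tef and Dbp were lower, and the repressor gene Per2 higher, at day 11 than at day 0 in both models. Clock passed the main test on no day in either. Of these day 11 calls, that of Tef in B16 was lost under several alternative settings, and the others were kept under all. Tef was 7.78-fold lower and Dbp 4.05-fold lower at day 11 than at day 0 in CT26, on the log2(value + 1) scale used for every fold change here. Tef averaged 24.0 ± 9.96 normalised counts at day 11 in CT26, against 185 ± 26.5 at day 0, and Per2 997.5 ± 217, against 304 ± 51.2 at day 0 (SD, n = 3 each). Per2 was 3.25-fold higher at day 11 than at day 0 in CT26 and 2.26-fold higher in B16. Per1 at day 11 was 2.83-fold higher than at day 0 in B16, whereas in CT26 it passed the test at days 4 and 8, when it was lower. Arntl was 2.36-fold higher at day 4 than at day 0 in B16, with no call in CT26.

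Of the 10 genes, 9 matched a promoter entry in RefSeq (build GRCm38.p6), with 14 windows of 250 bases before to 50 bases after a start. The E-box CACGTG, on either strand, was in 4 windows of 3 genes, against 7.15% of 32851 mouse promoter windows. The D-box TTATGNAA was in 1 window (3.38% of all windows). The core of the ROR element to which NR1D1 and NR1D2 bind, TAGGTCA, was in 1 (2.61%), and the cyclic AMP partial site TGACG in 4 windows of 3 genes (20.8%). The full cyclic AMP response element TGACGTCA was in 0 windows (1.79%). A stretch is shown from each of the windows that hold an E-box, a D-box or the ROR element core, with the motifs named above in capitals, since these are the elements of the loop and its outputs. Windows that hold TGACG alone, of Cry2 and of a further Per1 start, are not shown. A match is a description of the letters and not evidence of binding. Each is written 5′ to 3′ on the gene's own strand.
Per1 (chr11:69098699-69098948, plus strand, TGACG, E-box and D-box): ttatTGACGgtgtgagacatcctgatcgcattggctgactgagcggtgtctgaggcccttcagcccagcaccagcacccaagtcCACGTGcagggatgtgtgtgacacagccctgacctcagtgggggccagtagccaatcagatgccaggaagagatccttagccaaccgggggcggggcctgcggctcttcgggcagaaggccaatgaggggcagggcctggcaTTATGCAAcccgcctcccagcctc
Cry1 (chr10:85185082-85185141, minus strand, E-box): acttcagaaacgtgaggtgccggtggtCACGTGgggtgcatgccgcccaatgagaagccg
Tef, upstream start (chr15:81802519-81802578, plus strand, E-box): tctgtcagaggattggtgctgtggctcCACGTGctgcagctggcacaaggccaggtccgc
Tef, downstream start (chr15:81811249-81811308, plus strand, E-box): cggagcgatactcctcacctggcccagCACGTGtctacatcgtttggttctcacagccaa
Arntl (chr7:113207531-113207560, plus strand, ROR element core): aggcagaaagTAGGTCAgggacggaggtgc
The Per1 window thus held the first base of its E-box 166 bases before the start and that of its D-box 24 bases before it, and the Arntl element began 31 bases after the start.

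The deposited normalised counts summed to 10703698 to 14272441 per CT26 library and 12388717 to 15027698 per B16 library. Markers of the labelled myeloid cells were abundant: 7 neutrophil markers (S100a8 and S100a9 among them) summed to 497300 to 955500 normalised counts per CT26 library and 610000 to 932100 per B16 library, and 6 monocyte markers to 8036 to 10570 and 7779 to 12350. Day 11 replicate 1 of CT26 stood apart, with a sum of 5 tissue macrophage markers of 6960 normalised counts, against 872 and 1476 in the other day 11 libraries. In B16, the ribosomal RNA precursor Rn45s took 0.427% to 1.05% of counts on later days, against 2.57% to 3.10% at day 0. In CT26 it took 0.343% to 0.416% at day 4, against 0.636% to 0.770% at day 0, the day 4 libraries being those with the lowest Per1 levels. Day 11 replicate 3 of CT26 stood at 0.359% as well, with Per1 at 677 normalised counts, within the day 0 range of Per1. In B16, Per1 was higher on the later days, when Rn45s was lower. The part of Rn45s in the clock gene values was not tested. In bulk samples such as these, fewer cells of a type and less RNA per cell cannot be told apart.

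Per kilobase of exon, Cry1, Per1 and Per2 led in both models, while the other repressor genes Cry2, Nr1d1 and Nr1d2 stood lower. Averaged over all CT26 libraries, Cry1 stood at 151 normalised counts per kilobase, Per1 at 106 and Per2 at 86.05. Tef followed at 11.5 and Cry2 at 10.1, and Nr1d1, Clock, Dbp, Nr1d2 and Arntl lay between 5.78 and 2.78. Averaged over B16 libraries, Per1 stood at 185, Cry1 at 101 and Per2 at 73.6 normalised counts per kilobase, ahead of Cry2 at 11.0, and the remaining 6 genes lay between 7.70 for Nr1d1 and 4.26 for Arntl. Neighbours in this order overlapped in their ranges over libraries, except that Per2 did not overlap the next gene down, Tef in CT26 and Cry2 in B16. Tef had the widest range over libraries, 13.3-fold in CT26 and 3.53-fold in B16, and Clock the narrowest, 1.69-fold in CT26 and 1.52-fold in B16.

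**Figure D1:**
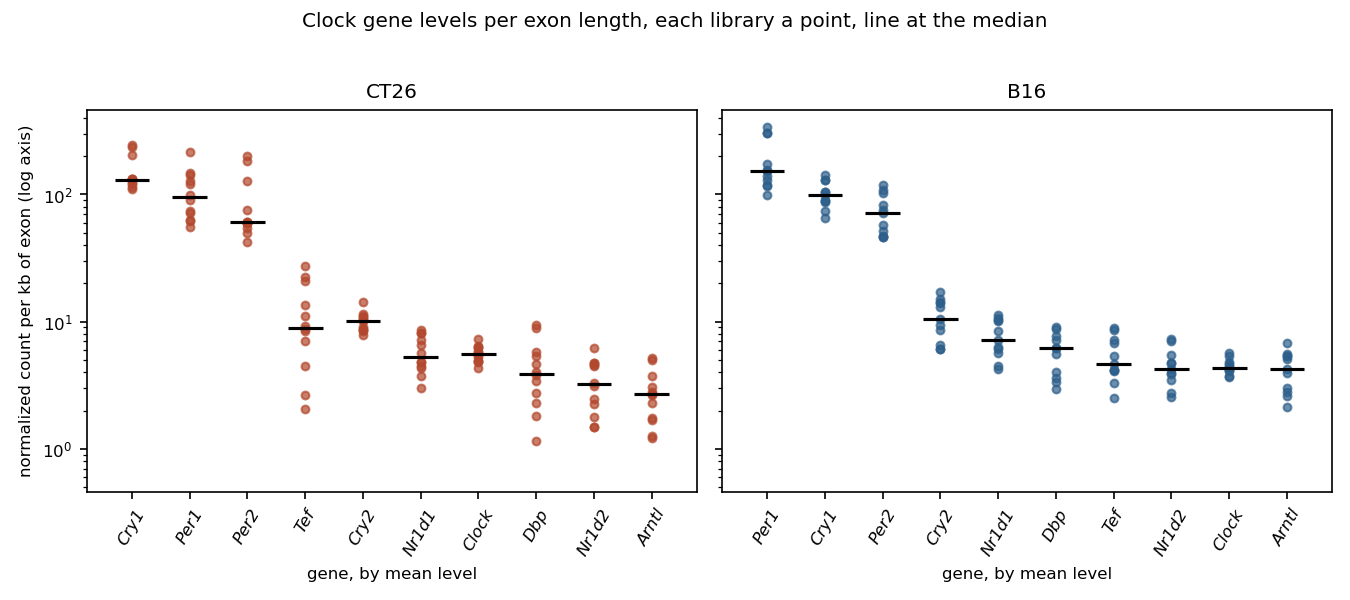
Level of each clock gene in normalised counts per kilobase of exon (log axis), with a point for each library and a black line at the median, in CT26 and B16. Cry1, Per1 and Per2 sit above the other 7 genes, and Per2 does not overlap the next gene down in either model.

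Levels were tested with limma on log2(value + 1) over all genes with a mean of at least 5 normalised counts (11373 in CT26, 11930 in B16), with Benjamini-Hochberg adjustment over all of them and a threshold of 0.05. All 10 clock genes passed this filter in both models. The comparisons with day 0 share the same day 0 libraries, and all libraries of a model share 1 estimate of the spread.

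Clock, the histone acetyltransferase partner of ARNTL (chr5:76209868-76304792, minus strand, GRCm38), passed no main test. At day 11 against day 8 in B16 its log2 change was -0.28 ± 0.18 (SE, limma adjusted p = 0.244). That change was called only with libraries scaled to the same total (log2 -0.54, limma adjusted p = 0.0269), which moved the median of all genes to -0.305. Clock had 59.2, 74.7 and 86.5 normalised counts at day 0 in CT26 and 100.3, 78.5 and 79.6 at day 4. At day 8 Clock had 72.0, 66.5 and 88.8, and at day 11 84.8, 67.9 and 67.8. Clock had 50.8, 63.6 and 61.8 normalised counts at day 0 in B16 and 66.1 and 57.6 at day 4. At day 8 Clock had 77.2, 74.2 and 55.8, and at day 11 58.5, 51.4 and 59.2. The days overlapped within each model. The log2 change at day 11 against day 0 was 0.01 ± 0.18 (SE, limma adjusted p = 0.971) in CT26, with a 95% interval of -0.37 to 0.39, and -0.05 ± 0.18 (SE, limma adjusted p = 0.826) in B16, with an interval of -0.44 to 0.33. Over the 6 comparisons with day 0 the intervals ran from -0.44 to 0.61, so changes of that size are not excluded by these libraries. The pseudogene Ube2n-ps1 and the predicted transcript Gm43658 lie within Clock on the same strand, so reads there could be assigned to either.

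Arntl, which encodes the other partner of the activating pair (chr7:113207465-113314126, plus strand), was the least abundant of the 10 per kilobase and was called in B16 alone. Arntl had 16.1, 19.5 and 21.0 normalised counts at day 0 in B16 and 40.4 and 51.5 at day 4. At day 8 Arntl had 41.6, 40.1 and 38.0, and at day 11 22.7, 29.6 and 31.8. Every B16 library of days 4 and 8 lay above every day 0 library, and the day 11 libraries were in between, also above day 0. Arntl rose by 1.24 ± 0.25 (SE, limma adjusted p = 0.00202) on the log2 scale at day 4 against day 0 in B16 and by 1.05 ± 0.22 (SE, limma adjusted p = 0.00148) at day 8, and 9.15% of tested genes changed as much in either direction at day 4. The day 11 difference, 0.54 ± 0.22 (SE, limma adjusted p = 0.0629), was not called, but was called without day 11 replicate 1 (log2 0.68, adjusted p = 0.0395). The change at day 11 against day 8 in B16 was -0.51 ± 0.22 (SE, limma adjusted p = 0.0932). It was called only with libraries scaled to the same total (log2 -0.765, limma adjusted p = 0.0141).

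Arntl had 23.0, 39.1 and 27.9 normalised counts at day 0 in CT26 and 9.55, 13.1 and 20.9 at day 4. At day 8 Arntl had 19.99, 20.5 and 17.3, and at day 11 37.9, 9.20 and 12.7. Day 4 and day 8 libraries lay below all day 0 libraries, and at day 11 replicate 1 reached the day 0 range while the other 2 were below it. The changes against day 0, -1.03 ± 0.41 (SE, limma adjusted p = 0.117) at day 4, -0.58 ± 0.41 (SE, limma adjusted p = 0.323) at day 8 and -0.79 ± 0.41 (SE, limma adjusted p = 0.125) at day 11 on the log2 scale, were not called. Without day 11 replicate 1 the day 11 difference was called (log2 -1.36, adjusted p = 0.0022), as was the day 4 difference (log2 -1.03, adjusted p = 0.021), which shares its estimate of spread. With only days 0 and 4 fitted, the day 4 difference was also called (log2 -1.03, adjusted p = 0.0333).

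**Figure D2:**
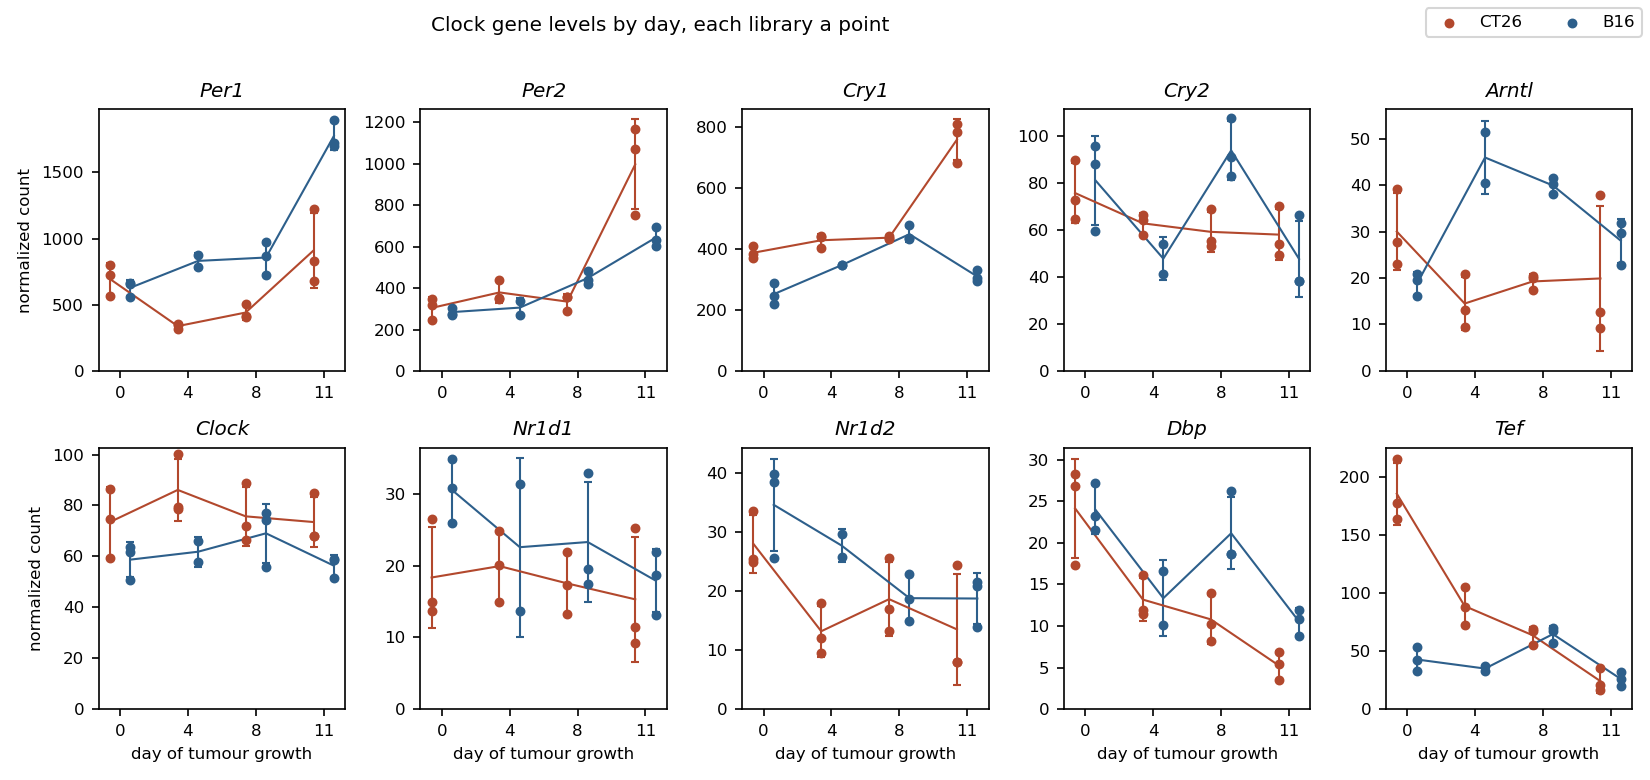
Normalised counts of the 10 clock genes by collection day (0, 4, 8 and 11), with a point for each library and lines through the day means with SD bars, CT26 in red and B16 in blue. Tef falls across days in CT26, Per2 is highest at day 11 in both models, and Clock stays within a narrow range.

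Per1, the period gene with the fastest acute induction (chr11:69095217-69109960, plus strand), followed a different course in each model. Per1 had 562.5, 725 and 799 normalised counts at day 0 in CT26 and 348, 315 and 353 at day 4. At day 8 Per1 had 505, 404 and 415, and at day 11 1225, 828 and 677. Day 4 and day 8 libraries lay below every day 0 library, and day 11 libraries spread across and above the day 0 range. Per1 fell by 1.02 at day 4 against day 0 on the log2 scale (SE 0.17, limma adjusted p = 0.000881) and by 0.65 at day 8 (SE 0.17, adjusted p = 0.0086). The day 8 call ended without day 0 replicate 3 (log2 -0.54, adjusted p = 0.0526). On the recovered reads, of which only 1 day 4 library could be used, edgeR gave log2 -0.91, adjusted p = 0.249 at day 4, DESeq2 log2 -0.88, adjusted p = 0.051, and edgeR log2 -0.67, adjusted p = 0.13 at day 8, none a call.

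Between days 8 and 11 Per1 rose in CT26 by 1.01 ± 0.17 (SE, limma adjusted p = 0.000439) on the log2 scale. Against day 0 the day 11 level differed by 0.36 ± 0.17 (SE, limma adjusted p = 0.0882), which was not called. That difference shrank without day 11 replicate 1 (log2 0.12, adjusted p = 0.452) and was called without day 11 replicate 3 (log2 0.55, adjusted p = 0.0129).

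Per1 had 659, 666 and 561 normalised counts at day 0 in B16 and 788 and 875 at day 4. At day 8 Per1 had 977, 725 and 868, and at day 11 1701, 1726 and 1897. Every later library lay above every day 0 library, and the day 11 libraries were above all others. Per1 rose by 0.41 ± 0.12 (SE, limma adjusted p = 0.0186) on the log2 scale at day 4 against day 0 and by 0.44 ± 0.11 (SE, limma adjusted p = 0.00374) at day 8. It rose by 1.499 ± 0.11 (SE, limma adjusted p = 1.12e-06) at day 11 against day 0, a change reached by 7.3% of tested genes, and by 1.06 ± 0.11 (SE, limma adjusted p = 1.54e-05) at day 11 against day 8. The day 4 call ended without day 0 replicate 3 or day 4 replicate 3 in turn (log2 0.33 in each, adjusted p = 0.0541 to 0.12). The calls at days 8 and 11 were kept under every alternative.

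Per2, the second period gene (chr1:91415982-91459324, minus strand), was highest at day 11 in both models. Per2 had 248, 318 and 347 normalised counts at day 0 in CT26 and 440.4, 346 and 351 at day 4. At day 8 Per2 had 359, 290.5 and 355, and at day 11 752, 1074 and 1166. The day 11 libraries stood above all others, and days 0, 4 and 8 overlapped, with day 4 replicate 1 the highest among them. Per2 rose by 1.70 ± 0.16 (SE, limma adjusted p = 1.4e-07) on the log2 scale at day 11 against day 0 and by 1.55 ± 0.16 (SE, limma adjusted p = 3.44e-06) against day 8. Per2 had 276, 272 and 305 normalised counts at day 0 in B16 and 339.5 and 272 at day 4. At day 8 Per2 had 484.5, 439 and 422, and at day 11 696, 602.5 and 631. Day 8 libraries lay above day 0 and day 4 libraries, and day 11 libraries above those of day 8. Per2 rose by 0.66 ± 0.10 (SE, limma adjusted p = 0.000156) at day 8 against day 0 in B16 and by 1.18 ± 0.10 (SE, limma adjusted p = 3.91e-06) at day 11. The step to day 11 from day 8, 0.52 ± 0.10 (SE, limma adjusted p = 0.0019), lost its call with all libraries scaled to the same total (log2 0.26, adjusted p = 0.0551). That to day 8 from day 4, 0.56 ± 0.11 (SE, limma adjusted p = 0.0033), ended without day 4 replicate 3 (log2 0.40, adjusted p = 0.0504).

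Cry1, a cryptochrome that blocks the ARNTL and CLOCK pair (chr10:85131700-85185064, minus strand), rose at different times in the models. Cry1 had 383, 409.7 and 371 normalised counts at day 0 in CT26 and 438, 404 and 444.5 at day 4. At day 8 Cry1 had 435, 434 and 444, and at day 11 682, 784.5 and 812. The first 3 days lay close together and the day 11 libraries stood apart above them. Cry1 rose by 0.96 ± 0.09 (SE, limma adjusted p = 8.98e-08) on the log2 scale at day 11 against day 0 and by 0.79 ± 0.09 (SE, limma adjusted p = 7.41e-06) against day 8. Cry1 had 219, 289 and 247 normalised counts at day 0 in B16 and 348 and 347 at day 4. At day 8 Cry1 had 478, 432 and 437, and at day 11 329.7, 295 and 305. Each later B16 day lay above day 0, with the peak at day 8 and day 11 libraries below both day 4 and day 8 libraries. Cry1 rose by 0.47 ± 0.12 (SE, limma adjusted p = 0.00731) at day 4 against day 0 in B16 and by 0.84 ± 0.10 (SE, limma adjusted p = 2.61e-05) at day 8, and fell by 0.53 at day 11 against day 8 (SE 0.10, limma adjusted p = 0.00183). The remaining difference of day 11 against day 0, 0.31 ± 0.10 (SE, limma adjusted p = 0.0301), lost its call without day 0 replicate 1, day 0 replicate 3, day 11 replicate 1 or day 11 replicate 3 in turn (log2 0.21 to 0.32, adjusted p = 0.0603 to 0.127). With libraries scaled to the same total it was log2 0.17, adjusted p = 0.21.

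Cry2, the second cryptochrome (chr2:92403646-92434043, minus strand), gave few calls. Cry2 had 72.5, 64.6 and 89.5 normalised counts at day 0 in CT26 and 64.0, 66.4 and 57.7 at day 4. At day 8 Cry2 had 69.0, 55.2 and 53.0, and at day 11 54.1, 49.5 and 70.1. The day 11 libraries overlapped the day 0 libraries, and the log2 change at day 11 against day 0, -0.38 ± 0.18 (SE, limma adjusted p = 0.0932), was not called, though it was with libraries scaled to the same total (log2 -0.66, adjusted p = 0.01) and without day 11 replicate 3 (log2 -0.53, adjusted p = 0.0356). Cry2 had 87.9, 95.4 and 59.6 normalised counts at day 0 in B16 and 41.3 and 54.1 at day 4. At day 8 Cry2 had 90.8, 107 and 82.9, and at day 11 38.2, 66.2 and 38.4. Day 8 libraries lay above those of days 4 and 11, and day 0 libraries spread across the gap. Cry2 was lower at day 11 than at day 8 by a log2 change of -1.003 ± 0.25 (SE, limma adjusted p = 0.00775). Against day 0 the day 11 change of -0.77 ± 0.25 (SE, limma adjusted p = 0.0228) was called although the groups overlapped, and the call ended without day 0 replicate 1, day 0 replicate 2, day 11 replicate 1 or day 11 replicate 3 in turn (log2 -0.70 to -0.64, adjusted p = 0.0747 to 0.0871). The day 4 change against day 0, -0.74 ± 0.28 (SE, limma adjusted p = 0.0563), was not called, and was called without day 0 replicate 3 (log2 -0.94, adjusted p = 0.0196), without day 11 replicate 2 (log2 -0.73, adjusted p = 0.0313) and with libraries scaled to the same total (log2 -0.78, adjusted p = 0.0459). D930015M05Rik lies opposite Cry2 in the annotation and reached at most 2.98 normalised counts in a library.

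Nr1d1, which encodes a haem-binding repressor of Arntl (chr11:98767932-98775333, minus strand), passed no test. Nr1d1 had 26.5, 13.7 and 14.9 normalised counts at day 0 in CT26 and 24.8, 20.1 and 14.9 at day 4. At day 8 Nr1d1 had 22.0, 13.3 and 17.3, and at day 11 25.3, 11.5 and 9.20. Nr1d1 had 26.0, 34.9 and 30.9 normalised counts at day 0 in B16 and 13.8 and 31.4 at day 4. At day 8 Nr1d1 had 19.5, 17.4 and 33.0, and at day 11 13.1, 18.8 and 21.9. Days overlapped throughout CT26, and in B16 the day 11 libraries lay below the day 0 libraries without a call. The log2 change at day 11 against day 0 was -0.31 ± 0.37 (SE, limma adjusted p = 0.51) in CT26 (95% interval -1.10 to 0.47) and -0.76 ± 0.35 (SE, limma adjusted p = 0.0963) in B16 (95% interval -1.52 to 0.01). Nr1d1 shares 1075 bases with Thra, a thyroid hormone receptor gene on the opposite strand, and the sources used here do not say whether counting used strand. Thra changed by a log2 of -0.89 ± 0.14 (SE, limma adjusted p = 4.81e-05) at day 11 against day 0 in CT26 and by -0.34 ± 0.15 (SE, limma adjusted p = 0.0896), not a call, in B16.

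Nr1d2, its paralogue (chr14:18204054-18239127, minus strand), was called in both models. Nr1d2 had 33.6, 25.5 and 24.9 normalised counts at day 0 in CT26 and 9.55, 12.1 and 17.9 at day 4. At day 8 Nr1d2 had 17.0, 25.6 and 13.3, and at day 11 24.4, 8.05 and 8.05. Day 4 libraries lay below all day 0 libraries, and at day 11 replicate 1 was close to the day 0 libraries while the other 2 were far below them. Nr1d2 fell by 1.17 at day 11 against day 0 on the log2 scale (SE 0.39, limma adjusted p = 0.0203). That call ended without day 0 replicate 1, day 11 replicate 2 or day 11 replicate 3 in turn (log2 -1.04 to -0.92, adjusted p = 0.0749 to 0.0916), whereas without day 11 replicate 1 the change was larger (log2 -1.67, adjusted p = 0.000427). On the recovered reads the day 11 call also ended, in edgeR (log2 -1.15, adjusted p = 0.117) and in DESeq2 (log2 -1.11, adjusted p = 0.223). The limma test over any day gave no call for Nr1d2 in CT26 (adjusted p = 0.0636). The day 4 change, -1.06 ± 0.39 (SE, limma adjusted p = 0.091), was not called, and was called without day 11 replicate 1 (log2 -1.06, adjusted p = 0.0193).

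Nr1d2 had 38.4, 25.6 and 39.7 normalised counts at day 0 in B16 and 25.7 and 29.7 at day 4. At day 8 Nr1d2 had 18.7, 14.8 and 22.8, and at day 11 21.5, 13.8 and 20.8. Day 8 and day 11 libraries lay below every day 0 library. The log2 change against day 0 was -0.84 ± 0.28 (SE, limma adjusted p = 0.0223) at day 8 and -0.85 ± 0.28 (SE, limma adjusted p = 0.0262) at day 11. Both calls depended on single libraries: the first ended without day 0 replicate 1, day 0 replicate 3, day 8 replicate 1 or day 8 replicate 2 in turn (log2 -0.85 to -0.69, adjusted p = 0.053 to 0.0911), and the second without day 0 replicate 1, day 0 replicate 3 or day 11 replicate 2 in turn (log2 -0.77 to -0.66, adjusted p = 0.0811 to 0.098). The day 11 call also ended in limma with no filter (log2 -0.85, adjusted p = 0.0524) and in DESeq2 (log2 -0.89, adjusted p = 0.0595).

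Tef (chr15:81802421-81826863, plus strand) gave the largest change of the 10 genes. Tef had 177, 164 and 215 normalised counts at day 0 in CT26 and 87.9, 72.5 and 105 at day 4. At day 8 Tef had 67.0, 68.5 and 55.1, and at day 11 35.2, 16.1 and 20.7. Day 0 libraries lay above all others and day 11 libraries below all others, with days 4 and 8 between them. Tef fell by 1.06 at day 4 (SE 0.23, limma adjusted p = 0.00742), 1.53 at day 8 (SE 0.23, adjusted p = 9.32e-05) and 2.96 at day 11 (SE 0.23, adjusted p = 1.69e-08) against day 0 on the log2 scale. The day 11 change was as large or larger in 2.36% of tested genes. The change at day 11 against day 8 was -1.43 ± 0.23 (SE, limma adjusted p = 0.000307). Of the alternatives tried, edgeR on the recovered reads, with 1 day 4 library, ended the day 4 call (log2 -0.98, adjusted p = 0.264), and DESeq2 gave it no adjusted p.

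Tef had 42.1, 32.8 and 53.0 normalised counts at day 0 in B16 and 33.0 and 36.7 at day 4. At day 8 Tef had 69.6, 67.2 and 56.6, and at day 11 32.2, 25.7 and 19.7. Day 8 libraries lay above all others, and day 11 libraries lay below all day 0 libraries. Tef at day 11 was lower than at day 8 by a log2 change of -1.31 ± 0.24 (SE, limma adjusted p = 0.00116), a call kept under every alternative. The rise at day 8 against day 0, 0.61 ± 0.24 (SE, limma adjusted p = 0.045), was close to the threshold and ended without day 0 replicate 1, day 0 replicate 2, day 4 replicate 1, day 4 replicate 3, day 8 replicate 1, day 8 replicate 2, day 8 replicate 3 or day 11 replicate 2 in turn (log2 0.43 to 0.69, adjusted p = 0.0519 to 0.162). The decrease at day 11 against day 0, -0.70 ± 0.24 (SE, limma adjusted p = 0.0294), ended without day 0 replicate 1, day 0 replicate 3, day 11 replicate 2 or day 11 replicate 3 in turn (log2 -0.71 to -0.53, adjusted p = 0.0606 to 0.112). That call also ended in limma with no filter (adjusted p = 0.0525), in limma with only the days compared (adjusted p = 0.0716) and in DESeq2 (log2 -0.725, adjusted p = 0.0631). The antisense transcript Gm17597 shares 193 bases with Tef.

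Dbp (chr7:45705088-45710203, plus strand) was lower at day 11 in both models and rested on few reads. Dbp had 28.3, 17.3 and 26.9 normalised counts at day 0 in CT26 and 11.5, 16.1 and 11.9 at day 4. At day 8 Dbp had 13.99, 10.2 and 8.16, and at day 11 5.41, 3.45 and 6.90. All later libraries lay below all day 0 libraries, and the day 11 libraries were below the others. Day 11 replicate 2 held 3 reads (95% Poisson interval 0.619 to 8.77, counting error alone) and replicates 1 and 3 held 6 each (2.20 to 13.1). Dbp fell by 2.02 at day 11 against day 0 on the log2 scale (SE 0.35, limma adjusted p = 0.000143). The day 8 decrease, -1.09 ± 0.35 (SE, limma adjusted p = 0.0279), lost its call without day 0 replicate 1, day 0 replicate 3, day 8 replicate 2 or day 8 replicate 3 in turn (log2 -1.07 to -0.93, adjusted p = 0.0706 to 0.114). The day 4 change, -0.81 ± 0.35 (SE, limma adjusted p = 0.142), was not called.

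Dbp had 27.2, 21.5 and 23.2 normalised counts at day 0 in B16 and 10.1 and 16.6 at day 4. At day 8 Dbp had 18.7, 26.2 and 18.6, and at day 11 11.9, 10.9 and 8.77. Day 4 and day 11 libraries lay below the day 0 libraries, and day 8 libraries overlapped them. Dbp fell by 1.12 at day 11 against day 0 in B16 (SE 0.29, limma adjusted p = 0.00821). The day 4 change against day 0, -0.83 ± 0.33 (SE, limma adjusted p = 0.0665), was not called, and was called without day 4 replicate 3 (log2 -1.17, adjusted p = 0.0469), which left 1 day 4 library. The difference of day 11 against day 8, -0.93 ± 0.29 (SE, limma adjusted p = 0.0261), lost its call without day 8 replicate 2, day 11 replicate 2 or day 11 replicate 3 in turn (log2 -0.96 to -0.78, adjusted p = 0.054 to 0.117). Dbp shares 737 bases with Sphk2, a sphingosine kinase gene on the opposite strand, which changed by -0.51 ± 0.08 (SE, limma adjusted p = 6.63e-05) at day 11 against day 0 in CT26 and by -0.20 ± 0.07 (SE, limma adjusted p = 0.0418) in B16.

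**Figure D3:**
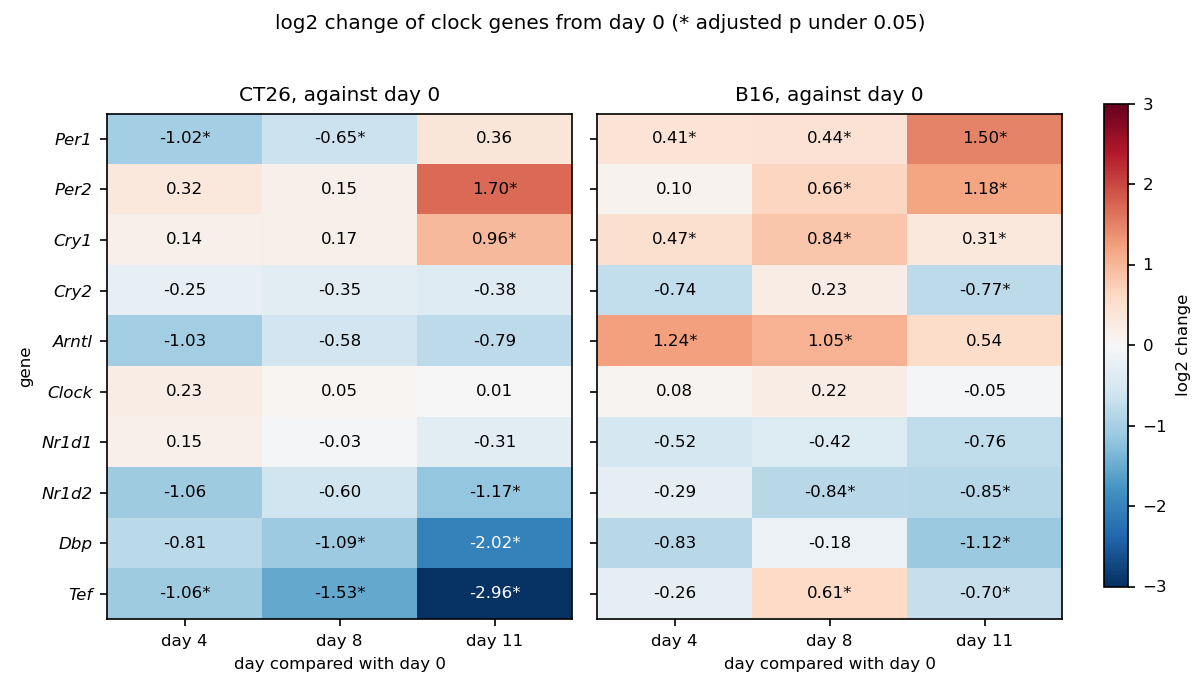
Log2 change of each clock gene from day 0 at days 4, 8 and 11, CT26 and B16, in colour and as printed values, with an asterisk where limma's adjusted p was under 0.05. Tef and Dbp are negative on all days in CT26, Per2 and Cry1 are positive at day 11 in both models, and Clock carries no asterisk.

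The count of clock genes called is given beside the share of all tested genes called in the same comparison, since many genes differed between days. In CT26 at day 4 against day 0, 2 of 10 genes were called (0 higher, 2 lower), against 10.9% of all tested genes (6.4% higher, 4.46% lower). At day 8 against day 0 in CT26, 3 of 10 genes were called (0 higher, 3 lower), against 26.9% of all tested genes (15.1% higher, 11.8% lower), and at day 11, 5 of 10 genes were called (2 higher, 3 lower), against 50.3% of all tested genes (26.3% higher, 24% lower). Without day 11 replicate 1, 6 were called at day 11 and 4 at day 4, and without day 0 replicate 3, 1 was called at day 8. The day 8 and day 11 shares are near the background. Groups did not overlap for 5 of the 10 genes in each of these 3 comparisons, against 38.9% of all tested genes at day 4, 47.4% at day 8 and 53.1% at day 11. The median log2 change of the 10 was -0.53 at day 4, -0.46 at day 8 and -0.35 at day 11, with medians over all tested genes of 0.02, -0.01 and -0.01 on those days. The day 11 median of the 10 was -0.62 with libraries scaled to the same total and -0.53 without day 11 replicate 1. Of all genes called, 58.9% were higher at day 4, 56.0% at day 8 and 52.3% at day 11, and 37.8%, 29.5% and 26.9% were on those days with libraries scaled to the same total.

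In B16 at day 4 against day 0, 3 of 10 genes were called (3 higher, 0 lower), against 35.8% of all tested genes (20.3% higher, 15.5% lower). At day 8 against day 0 in B16, 6 of 10 genes were called (5 higher, 1 lower), against 56% of all tested genes (28.6% higher, 27.3% lower), and at day 11, 7 of 10 genes were called (3 higher, 4 lower), against 45.7% of all tested genes (23.9% higher, 21.8% lower). The day 11 count was 4 in DESeq2, 3 without day 0 replicate 1, and 4 without day 0 replicate 3 or day 11 replicate 3. Groups did not overlap for 5 genes at day 4, where there were 2 libraries against 3, for 6 at day 8 and for 8 at day 11, against 56.4%, 63.3% and 55.5% of all tested genes on those days. The median log2 change of the 10 was -0.09 at day 4, 0.33 at day 8 and -0.38 at day 11, with medians over all tested genes between -0.02 and 0.01. With libraries scaled to the same total the day 4 median of the 10 was -0.14. Of all genes called, 51.2% were higher at day 8 and 52.4% at day 11, and 61.3% and 36.5% were on those days after that scaling.

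Between later days, 0 of 10 genes were called at day 8 against day 4 in CT26 by limma, edgeR or DESeq2 (background 13.4% of all tested genes in limma, 7.42% higher and 5.96% lower). In that comparison 1 gene had an unadjusted limma p under 0.05, Per1, which was called with only days 4 and 8 fitted (log2 0.38, adjusted p = 0.00679) and without day 11 replicate 1 (log2 0.38, adjusted p = 0.0311). At day 11 against day 8 in CT26, 4 of 10 genes were called (3 higher, 1 lower), against 20.9% of all tested genes (10.9% higher, 9.94% lower), namely Per1, Per2 and Cry1 up and Tef down. In B16 at day 8 against day 4, 4 of 10 genes were called (4 higher, 0 lower), against 26.7% of all tested genes (12.7% higher, 14.1% lower), namely Per2, Cry1, Cry2 and Tef. Each of these lost its call without at least 1 library, and the count was 1 without day 4 replicate 1, day 4 replicate 3, day 8 replicate 1 or day 8 replicate 2. At day 11 against day 8 in B16, 6 of 10 genes were called (2 higher, 4 lower), against 36.2% of all tested genes (18.7% higher, 17.4% lower), namely Per1 and Per2 up and Cry1, Cry2, Dbp and Tef down. Over any day, 5 genes were called in CT26 (background 49.8%) and 8 in B16 (background 64.6%), the exceptions in B16 being Clock and Nr1d1. Scaling to the same total changed the share of called genes that were higher to 40.2% at day 8 against day 4 and 32.7% at day 11 against day 8 in CT26, where it had been 55.5% and 52.4%, and to 74.9% and 18.4% in B16, where it had been 47.3% and 51.8%.

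A list of 24 further clock genes (kinases, ubiquitin ligases, nuclear receptors and repressors that act on the loop) was counted beside the 10. At day 11 against day 0 in CT26, 8 of 19 tested were higher and 3 lower, with a median log2 change of 0.11. This split turned round to 3 higher and 7 lower, median -0.17, with libraries scaled to the same total, a scaling that moved the median of all genes to -0.29, and was 6 higher and 5 lower without day 11 replicate 1. Of all tested genes, 26.3% were called higher and 24% lower in that comparison. At day 11 against day 0 in B16, 4 of 21 were higher and 6 lower, against 23.9% and 21.8% of all tested genes, and 1 was higher and 7 lower after that scaling. At day 8 against day 0, 5 were higher and 1 lower in CT26, and 4 higher and 7 lower in B16. The CT26 day 8 split was 5 higher and 4 lower both with libraries scaled to the same total and without day 11 replicate 1. At day 4 against day 0 the counts were 3 higher and 1 lower in CT26, and 3 higher and 2 lower in B16. With libraries scaled to the same total the CT26 day 4 split turned round to 1 higher and 2 lower. The shares of all tested genes called at days 4 and 8 are given above, beside the counts of the 10.

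Among these, Nfil3, which encodes a bZIP repressor that competes with DBP and TEF for D-boxes, averaged, in normalised counts, 1253 ± 50.1 at day 0, 1501 ± 32.4 at day 4, 2730 ± 27.4 at day 8 and 3826 ± 287 at day 11 in CT26 (SD, n = 3 each). In B16 it averaged 834 ± 24.5 at day 0, 1653 ± 46.0 at day 4, 1065 ± 61.5 at day 8 and 1696 ± 28.4 at day 11 (SD, n = 3, and 2 at day 4). Nfil3 changed by a log2 of 1.61 ± 0.07 (SE, limma adjusted p = 2.11e-11) at day 11 against day 0 in CT26 and by 1.02 ± 0.06 (SE, limma adjusted p = 3.38e-07) in B16, and Tef and Dbp were called lower in that comparison in both models. At day 8 against day 0 in B16 Nfil3 changed by 0.35 ± 0.06 (SE, limma adjusted p = 0.000347), where Tef was also called higher. Both B16 calls of Tef against day 0, at days 8 and 11, were lost under several alternatives. At day 4 Nfil3 changed by 0.99 ± 0.07 (SE, limma adjusted p = 2.45e-06) in B16, where neither Tef nor Dbp was called. The part of Nfil3 in the Tef and Dbp changes was not tested. Usp2, a deubiquitinase gene with clock-controlled transcription, averaged 95.5 ± 8.93 at day 0, 169 ± 13.4 at day 4, 196 ± 20.4 at day 8 and 335 ± 13.7 at day 11 in CT26 (SD, n = 3 each) and changed by 1.80 ± 0.12 (SE, limma adjusted p = 1.65e-09) at day 11. In B16 Usp2 was lower at day 8 than at day 0, with a log2 change of -1.39 ± 0.21 (SE, limma adjusted p = 0.000111). Per3, the third period gene, was lower at day 11 in B16, with a log2 change of -1.61 ± 0.38 (SE, limma adjusted p = 0.00411). Timeless was higher at day 11 in CT26, by 1.30 ± 0.41 (SE, limma adjusted p = 0.0146), as was Ciart, a repressor gene listed at few counts, by 1.42 ± 0.55 (SE, limma adjusted p = 0.0405). Rora and Rorb, nuclear receptor genes that activate Arntl, were lower at day 11 in B16, Rora with a log2 change of -2.69 ± 0.65 (SE, limma adjusted p = 0.00529), and Rorb was listed at 0 in 2 of the 3 day 11 libraries.

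Genes that respond to acute signals were counted beside Per1. Of 12 immediate early genes, 11 were tested in CT26, and 9 were lower at day 4 against day 0, 8 at day 8 and 9 at day 11, with 1 higher at day 11. Their median log2 change at day 11 against day 0 was -2.36 in CT26 and 0.38 in B16, against -0.01 and -0.02 over all tested genes. Their summed level in CT26 libraries was 161800 to 166400 at day 0, 98400 to 101200 at day 4, 101300 to 106500 at day 8 and 45180 to 57490 at day 11. In B16, 1 of 10 was higher and 6 lower at day 4, 3 higher and 3 lower at day 8, and 7 higher and 1 lower at day 11. Of all tested genes, 4.46% were called lower at day 4, 11.8% at day 8 and 24% at day 11 in CT26. In B16, 20.3%, 28.6% and 23.9% were called higher on those days, and 15.5%, 27.3% and 21.8% lower. Their summed level in B16 libraries was 81160 to 90850 at day 0, 53980 to 56210 at day 4, 77370 to 84270 at day 8 and 127900 to 135800 at day 11. Fos changed by -2.81 ± 0.11 (SE, limma adjusted p = 2.32e-12) at day 11 against day 0 in CT26 and by 1.10 ± 0.11 (SE, limma adjusted p = 8.5e-06) in B16. Larger changes in CT26 included those of Egr1, -6.03 ± 0.14 (SE, limma adjusted p = 7.73e-15), and Fosb, -5.99 ± 0.11 (SE, limma adjusted p = 6.74e-16). In B16 Egr1 changed by 3.83 ± 0.18 and Fosb by 0.92 ± 0.12 (SE).

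Of 12 glucocorticoid-inducible genes, which were counted because Per1 and Per2 carry glucocorticoid response, 1 was higher and 3 lower at day 4 against day 0 in CT26, 5 higher and 4 lower at day 8, and 7 higher and 2 lower at day 11. In B16, with 10 tested, 2 were higher and 1 lower at day 4, 4 higher and 2 lower at day 8, and 7 higher and 0 lower at day 11. Of all tested genes in CT26, 6.4% were called higher and 4.46% lower at day 4, and 15.1% and 11.8% at day 8. In B16 the shares were 20.3% and 15.5% at day 4, and 28.6% and 27.3% at day 8. The list's median log2 change at day 11 was 1.23 in CT26 and 0.47 in B16, against -0.01 and -0.02 over all tested genes, of which 26.3% were called higher and 24% lower in CT26, and 23.9% higher and 21.8% lower in B16. With libraries scaled to the same total the medians were 0.95 and 0.34, and without day 11 replicate 1 the CT26 median was 0.91. The list's summed level in CT26 was lower at day 11, at 51760 to 63100 normalised counts, against 99470 to 101000 at day 0. In B16 the sum was 108900 to 120600 at day 11, against 58760 to 65920 at day 0. Fkbp5, a cochaperone of the glucocorticoid receptor, changed by 1.42 ± 0.10 (SE, limma adjusted p = 2.68e-09) at day 11 in CT26 and by 0.37 ± 0.12 (SE, limma adjusted p = 0.0241) in B16. Larger changes in CT26 included those of Cd163, 5.72 ± 0.69 (SE, limma adjusted p = 2.92e-06), and Mt1, 4.45 ± 0.59 (SE, limma adjusted p = 9.81e-06). Mt2 changed by 3.77 ± 0.81 (SE, limma adjusted p = 0.00102) and Il1r2 by 2.43 ± 0.07 (SE, limma adjusted p = 1.31e-13). Neutrophil and tissue macrophage markers, given below, also rose by day 11 in CT26, and Il1r2 is itself one of those neutrophil markers. The 2 genes of the list called lower at day 11 in CT26 were Dusp1, -1.49 ± 0.12 (SE, limma adjusted p = 2.6e-08), and Zbtb16, -0.79 ± 0.13 (SE, limma adjusted p = 6.68e-05). The part of either list in the clock gene changes was not tested.

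Markers of the labelled cells and of other blood cells moved on the same days. The 7 neutrophil markers summed in CT26 to 497300 to 588100 at day 0, 562200 to 607100 at day 4, 699400 to 805700 at day 8 and 751300 to 955500 at day 11, with 5 of 7 called higher at day 11 against day 0. In B16 they summed to 691300 to 710400 at day 0, 710400 to 718000 at day 4, 610000 to 650900 at day 8 and 879600 to 932100 at day 11, with 6 of 7 higher at day 11 against day 0, and 4 higher and 1 lower with libraries scaled to the same total. Of 6 monocyte markers, 2 were higher and 2 lower at day 11 against day 0 in CT26, and 2 higher and 0 lower in B16. The part of either list in the clock gene changes was not tested. The summed level of 5 B cell markers in CT26 libraries was 1705 to 1900 at day 0, 634 to 739 at day 4, 885 to 1379 at day 8 and 215 to 506 at day 11, and 5 of 5 were lower at day 11 against day 0. The 5 eosinophil markers summed in CT26 to 4503 to 4858 at day 0, 2437 to 2884 at day 4, 1922 to 2322 at day 8 and 852 to 1007 at day 11, with all 4 tested lower at day 11. Tef and Dbp fell on the same CT26 days, and the part of these cells in that result was not tested. The 6 T cell markers summed in CT26 to 435 to 499.7 at day 0, 388 to 426 at day 4, 328 to 420.4 at day 8 and 223 to 279.5 at day 11, with 3 of 6 lower at day 11. The 5 tissue macrophage markers summed to 872 to 6960 at day 11, against 2.98 to 4.42 at day 0 in CT26. Per2, Cry1, Dbp and Tef kept their day 11 calls without the library with the highest sum. The other day 11 libraries still held sums of 872 and 1476, so that fit cannot show the part of these cells, which was not tested.

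In B16, B cell markers summed to 3516 to 3733 at day 0, 1977 to 2729 at day 4, 1447 to 1681 at day 8 and 2118 to 3081 at day 11, with 3 of 5 lower and 1 higher at day 11 against day 0. Eosinophil markers summed to 434 to 549 at day 0, 694 to 790.1 at day 4, 1777 to 2055 at day 8 and 790.2 to 924 at day 11 in B16, with Epx listed at 0 in every library of days 0, 4 and 11. Their day 8 peak fell on the day when Tef, Cry1, Cry2 and Clock had their highest means in B16. In CT26 the eosinophil sum was lowest at day 11, when mean Tef was lowest and mean Cry1 highest. The part of eosinophils in these levels was not tested. In B16 the 5 platelet markers were all higher on each later day, and summed to 1536 to 6625 at day 0, 20770 to 59390 at day 4, 17140 to 42660 at day 8 and 13420 to 16170 at day 11. The summed level of T cell markers in B16 was 314 to 354 at day 0, 132 to 249.6 at day 4, 232 to 271 at day 8 and 210.4 to 232 at day 11. NK cell markers summed to 54.5 to 114 at day 0, 58.5 to 95.4 at day 4, 53.2 to 85.4 at day 8 and 81.1 to 166 at day 11 in B16, and erythroid markers to 47.5 to 79.0 at day 0, 652 to 712 at day 4, 29.7 to 55.0 at day 8 and 92.8 to 99.1 at day 11. In CT26, NK cell markers summed to 29.9 to 38.9 at day 0, 39.3 to 51.7 at day 4, 46.9 to 71.6 at day 8 and 2.30 to 6.90 at day 11 and platelet markers to 552 to 631 at day 0, 436.5 to 2631 at day 4, 424 to 698 at day 8 and 491 to 1303 at day 11. Erythroid markers summed in CT26 to 139 to 177.5 at day 0, 64.4 to 83.1 at day 4, 84.7 to 154 at day 8 and 90.2 to 116 at day 11, with Hba-a1 and Hbb-bt listed at 0 throughout.

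**Figure D4:**
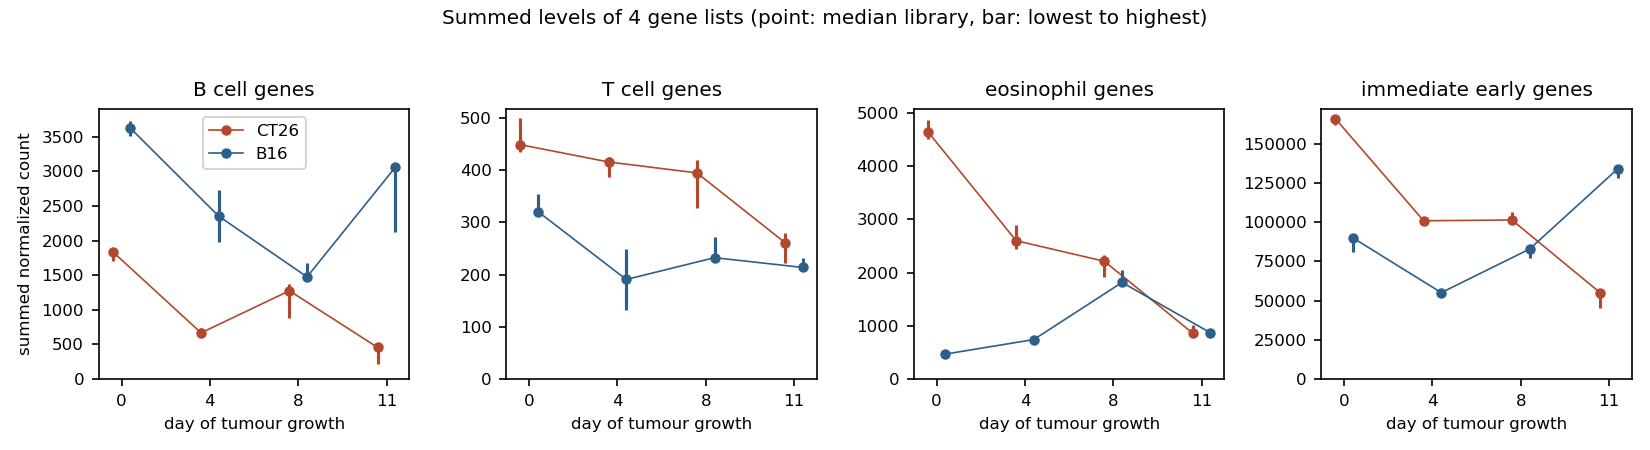
Summed normalised counts of B cell, T cell, eosinophil and immediate early genes by collection day in CT26 and B16, with a point at the median library and a bar from the lowest to the highest. B cell, eosinophil and immediate early sums are lowest at day 11 in CT26, while in B16 the eosinophil sum peaks at day 8 and the immediate early sum at day 11.

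Over all 23 libraries, the genes whose centred log2 levels lay nearest to those of Dbp were Mfng, A430046D13Rik and Entpd6, at root mean square differences of 0.324, 0.331 and 0.336, against a median of 0.737 over 10979 genes. Mfng, a fringe glycosyltransferase gene of the Notch pathway, averaged 174.5, 110.3, 75.6 and 41.9 normalised counts at days 0, 4, 8 and 11 in CT26 and 151, 81.7, 151 and 92.9 in B16. Nearest to Arntl were Uqcc1, Polr3k and Mybbp1a, at 0.351, 0.359 and 0.359, against a median of 0.655. Polr3k, an RNA polymerase III subunit gene, averaged 41.6, 26.98, 29.1 and 35.8 normalised counts on those days in CT26 and 47.5, 83.1, 76.1 and 53.3 in B16.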

How the data were processed

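Poly-A based RNA sequencing of blood myeloid cells was deposited as 1 table per tumour model (12 CT26 and 11 B16 libraries). Per the file headers the values are normalised counts, a signal of reads divided by 1 factor per library: within a tolerance of 0.001, 100% of the deposited values were whole multiples of 1 step. Per the submitters' processing notes, build mm10 was used with TopHat2 2.0.10, cutadapt, DESeq2 1.6.3 and HTSeq 0.6.1p1, in roles that are not stated. The sources used here state neither strandedness nor annotation. Whole reads were recovered for 19 libraries (8 CT26, 11 B16) and used for count tests only there, since the step in the other 4 lay near 1.

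Groups came from the sample titles. The main test was limma 3.58.1 (R 4.3.3) with a trend on log2(value + 1), fitted per model to the day means of genes averaging 5 or more. Tests were 2-sided at an adjusted p of 0.05 (Benjamini-Hochberg). This replaced the count test planned for raw counts. The fit was tested on simulated data. Alternatives were a pseudocount of 0.5, no filter, libraries scaled to the same total, a replicate block, edgeR 4.0.16 and DESeq2 1.42.0 on recovered reads, a fit of only the days compared, and each library left out. Levels per kilobase used the union of exons in GENCODE M21 (GRCm38), and promoters RefSeq windows (GRCm38.p6).

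All 10 clock genes are named whether called or not. Genes named from the other lists are examples and are not always those with the largest changes. A further list fixed with the others is not reported here. The members and lists were chosen with earlier results of these data known. Of the listed genes, Noct was found as Ccrn4l, and Ighm was not used here.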

Additional observations from a re-analysis of the deposited data

Results flagged for a closer look

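For 3 clock genes, every library of a later day moved one way from day 0 in CT26 and the other way in B16, on the same numbered day. Groups that did not overlap day 0 were common. In CT26 they were 38.9% of all tested genes at day 4 and 47.4% at day 8, and in B16 56.4% and 63.3%. The share of all genes that moved in opposite ways was not counted, so these cases are not called particular to clock genes. The models were normalised in separate tables and differ in strain, so the difference between them was not tested. Per1 changed by a log2 of -1.02 at day 4 against day 0 in CT26, and by 0.41 in B16. At day 8 the changes of Per1 were -0.65 in CT26 and 0.44 in B16. Each of these 4 changes was called, the B16 day 4 call ending without day 0 replicate 3 or day 4 replicate 3 and the CT26 day 8 call without day 0 replicate 3.

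Arntl changed by -1.03 at day 4 against day 0 in CT26 and by 1.24 in B16, and at day 8 by -0.58 in CT26 and 1.05 in B16. Only the B16 changes of Arntl were called. Tef changed at day 8 against day 0 by -1.53 in CT26 and by 0.61 in B16. Both were called, the B16 call with an adjusted p of 0.045 in limma and lost under several alternatives. Summed eosinophil markers moved the same way as Tef in each model at day 8, 1922 to 2322 normalised counts at day 8 in CT26, against 4503 to 4858 at day 0, and 1777 to 2055 at day 8 in B16, against 434 to 549 at day 0. At days 4 and 11 both were below day 0 in CT26. In B16 the sum was above day 0 at day 4 (694 to 790) and day 11 (790 to 924). Mean Tef was then below day 0 in B16 (34.9 and 25.9, against 42.6). The part of eosinophils in the Tef result was not tested.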

How the results depend on the processing

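Of 40 calls of a clock gene against another day, 22 were kept under every alternative and 18 were lost under at least 1, and 0 changed direction. No call was lost with a pseudocount of 0.5. With no filter 6 were lost, with libraries scaled to the same total 2, in the fit of only the days compared 2, in edgeR 5 and in DESeq2 8, with 1 more (Tef at CT26 day 4 against day 0) given no adjusted p there. Of all changes with a call, those kept had day 11 ranges such as -3.26 to -2.72 for Tef and 1.41 to 1.89 for Per2 against day 0 in CT26, and 1.36 to 1.54 for Per1 in B16.

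In the count of clock genes called, CT26 day 4 against day 0 gave 2 in the main analysis, 0 in edgeR, 0 in DESeq2 and 4 in the fit of only those days. CT26 day 8 against day 0 gave 1 in edgeR (main 3), CT26 day 8 against day 4 gave 1 in the fit of only those days (main 0), and B16 day 11 against day 0 gave 4 in DESeq2 (main 7). Only 1 CT26 day 4 library had recovered reads, so the count tests there rest on the spread of other days. Leaving out 1 library gave 7 to 8 genes for any day in B16, 3 to 7 for day 11 against day 0, 5 to 6 for day 11 against day 8, 3 to 4 for day 4 against day 0, 4 to 6 for day 8 against day 0 and 1 to 4 for day 8 against day 4. In CT26 the ranges were 5 to 7, 4 to 6, 4 to 5, 2 to 4, 1 to 3 and 0 to 1 in the same order.

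Over all genes, the CT26 counts of calls at day 4 against day 0 were 1235 in the main analysis, 74 in edgeR, 219 in DESeq2 and 2394 in the fit of only those days. At day 8 against day 0 they were 3056 in the main analysis, 1418 in edgeR and 1251 in DESeq2, and at day 11 against day 0, 5721 and 3385 in DESeq2. At day 8 against day 4 they were 1522, 288 in edgeR, 343 in DESeq2 and 2598 with only those days, and at day 11 against day 8, 2375, 996 in edgeR, 814 in DESeq2 and 1471 with only those days. Any day gave 5661, 3340 in edgeR and 2959 in DESeq2. The fewer libraries with recovered reads enter these count tests. Scaling to the same total moved the median log2 change of all genes by over 0.1 at day 8 against day 0 (to -0.185 in CT26 and 0.11 in B16), at day 11 against day 0 (to -0.292 and -0.151) and at day 11 against day 8 (to -0.098 and -0.305). It also did so in CT26 at day 4 against day 0 (to -0.096) and in B16 at day 8 against day 4 (to 0.143).

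With a replicate block, 36 of the 40 calls were kept. The B16 counts were 8 for any day, 6 for day 11 against day 0, 6 for day 11 against day 8, 2 for day 4 against day 0, 5 for day 8 against day 0 and 3 for day 8 against day 4, and the CT26 counts 5, 5, 4, 2, 3 and 0 in the same order. Same-numbered libraries of different days showed no clear common deviation, with correlations of -0.16 to 0.22 over 18 CT26 pairs and -0.11 to 0.23 over 15 B16 pairs. With so few libraries a day, a weak pairing by number could go unseen, and the labels state none. Low counts limit Dbp, Arntl, Nr1d1 and Nr1d2, which lay at or below 52 normalised counts in every library.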
